A study of Arabidopsis thaliana with 21 samples.

Results

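The comparison described here is between plants that express the RNA-binding mutant AtGRP7 R49Q-GFP and plants that express GFP alone, both crosslinked after 24 h in continuous light (LL24). Its members were chosen by the sample titles, and they are 3 R49Q libraries and 3 GFP-only libraries of the 21 samples in the series. The measurement was iCLIP, in which RNA is crosslinked to protein with ultraviolet light, the protein is precipitated, and the base next to the end of each truncated cDNA marks the crosslink (XL) site. The R49Q line carries AtGRP7::AtGRP7 R49Q-GFP in the grp7-1 mutant, a T-DNA line, and the GFP-only line carries AtGRP7::GFP in Col-0. Both transgenes are driven by the AtGRP7 promoter, and the Col-0 host still has its own AtGRP7. The host genotype therefore differs along with the protein, and the effects of host and protein cannot be told apart. All plants were 18 days old, spent 16 days at 20 °C under a cycle of 12 h light, 12 h dark before their release into continuous light, and gave aerial tissue that was pooled from several plants per replicate. Tissue received 254 nm light at 500 mJ/cm2 and was precipitated with GFP Trap beads. The AtGRP7-GFP line (AtGRP7::AtGRP7-GFP in grp7-1, 3 libraries at LL24) and the LL36 libraries of R49Q (2) and GFP-only (5), from the same lines at 36 h of continuous light, are used only where named.

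AtGRP7 is a glycine-rich RNA-binding protein of the circadian system with a single RNA recognition motif, the fold through which many proteins hold single-stranded RNA. It takes part in splicing and in the stability of its targets, its own transcript among them. In the R49Q variant an arginine within this motif is replaced by glutamine, a change known to impair RNA binding. GFP alone has no RNA-binding fold, so its libraries measure what the procedure recovers without one. The comparison asks whether transcripts and positions under the mutant protein differ from that background.

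The R49Q libraries listed 422, 2721 and 76 XL sites, against 208, 293 and 27 in the GFP-only libraries. These sites carried 1104, 7802 and 154 crosslinks in R49Q, against 510, 989 and 79 in GFP-only. They lay in 146, 444 and 25 genes in R49Q, against 63, 126 and 10 in GFP-only. The second R49Q library therefore holds most of the R49Q sites, and the third replicate of each genotype is small. On the log2(sites + 1) scale the R49Q mean was 8.80 ± 2.57 and the GFP-only mean 6.91 ± 1.83 (SD, n = 3 each; difference 1.896, two-sided exact permutation p = 0.4, where 3 against 3 libraries cannot go below 0.1). A gene is compared below by its share, the percentage of a library's listed crosslinks that fall in it. Since only sites that passed a false discovery rate of 0.05 were listed, a missing site is not a count of 0, and a share given as 0% means that the library lists no site in the gene. Of 4 root markers and 2 markers of myrosin and guard cells none was listed in either genotype, whereas all 6 photosynthetic leaf markers were listed in both. AtGRP7 (AT2G21660) and AtGRP8 (AT4G39260), 2 known targets of AtGRP7, had no listed site in any of the 6 libraries. The sites of the AtGRP7-GFP line at LL24 included 3 in AtGRP7, all in 1 library, and none in AtGRP8. At LL36, AtGRP7 had 9 listed sites in 1 R49Q library and 15 in 2 GFP-only libraries. AtGRP8 had 6 there in 1 R49Q library and none listed in GFP-only. The R49Q exchange itself cannot be read from these lists.

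The sites on which the results turn are shown here, each with 10 bases to either side of the crosslinked base, which is the capital letter. Sequences are RNA, 5′ to 3′, read from the TAIR10.1 chromosomes of RefSeq, which have the lengths of TAIR10. The first set comes from sites inside tRNA genes, which took a smaller share in each R49Q library than in any GFP-only library.
tRNA-Leu AT1G64120, chr1:23802581-23802601, plus strand: cagacucaagUucuggucuuc
tRNA-Leu AT4G25635, chr4:13076609-13076629, minus strand: cagacucaagUucuggucuuc
tRNA-Gln AT4G03405, chr4:1501629-1501649, plus strand: gacauuggacUcugaauccag
The next set comes from protein-coding transcripts. TPPI and the RBCS1A site in the last exon were listed in both genotypes, and the other sites in R49Q only.
TPPI 3′ UTR, chr5:3160429-3160449, plus strand: ucacauuguaUuuuuguaaaa
RBCS1A last exon, chr1:25048489-25048509, minus strand: ugcaucaguuUcauugccuac
RBCS1A first exon, chr1:25049192-25049212, minus strand: ccucuccggcUcaggccacua
RBCS1A 5′ UTR, chr1:25049261-25049281, minus strand: aaccucagucAcacaaagagu
LP1 3′ UTR, chr2:16131023-16131043, plus strand: auugugguguUcuuguuauau
GAPA 3′ UTR, chr3:9796903-9796923, plus strand: auuaugguucUcaaaauaucg
LHB1B2 3′ UTR, chr2:14522617-14522637, minus strand: cuuugugguaUcuuuguauag
The crosslinked base was U in 9 of these 10 windows and A in the RBCS1A 5′ UTR.

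The genotypes did not overlap in the share of crosslinks to tRNA. XL sites inside tRNA genes took 10.6%, 4.60% and 2.60% of the crosslinks in the R49Q libraries, against 19.4%, 22.9% and 59.5% in the GFP-only libraries. Every R49Q library was below every GFP-only library. The means were 5.93% ± 4.16 in R49Q and 33.9% ± 22.2 in GFP-only (SD, n = 3 each), a difference of -28.0 percentage points with a two-sided exact permutation p = 0.1, which is the smallest that 3 against 3 can give and does not pass 0.05. Without the third GFP-only library, in which 47 of 79 crosslinks lay in tRNA genes, the difference was -15.2 points, and without the third library of both genotypes it was -13.5 points. As numbers of crosslinks rather than shares, the R49Q libraries had 117, 359 and 4 in tRNA genes, against 99, 226 and 47 in GFP-only. By number the groups overlapped. Fewer crosslinks to tRNA and more to other RNA cannot be told apart from shares.

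**Figure D1:**
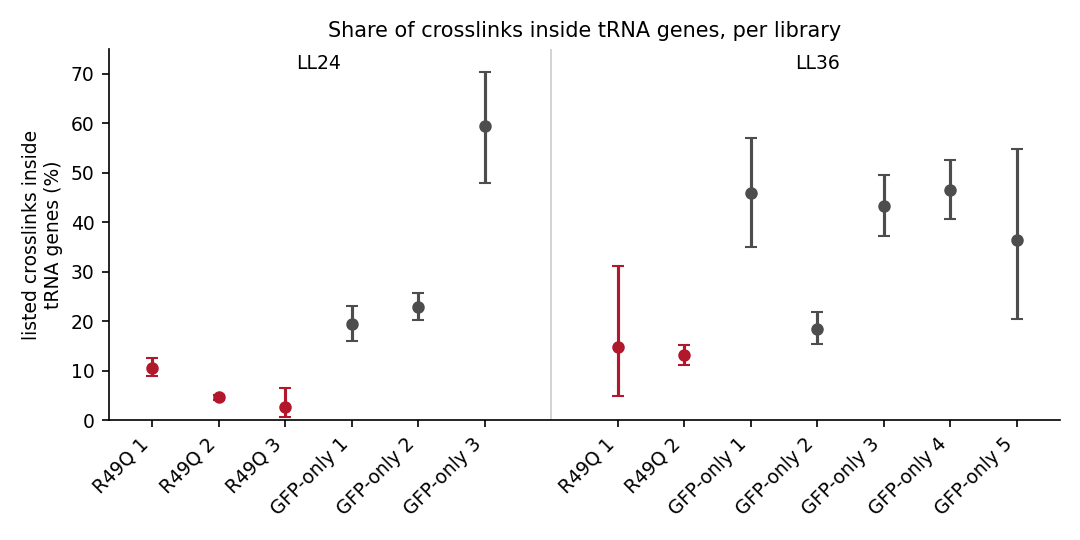
Percentage of each library's listed crosslinks that lay inside a tRNA gene on its strand (vertical axis) for R49Q (red) and GFP-only (grey) libraries at LL24 and LL36; bars are exact 95% binomial intervals, which cover counting error only. At LL24 the R49Q libraries lie between 2.60% and 10.6% and the GFP-only libraries between 19.4% and 59.5%.

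Only 4 tRNA genes had listed sites, and all 4 had them in both genotypes. Transfer RNAs carry amino acids to the ribosome. The lists name these sites after overlapping or neighbouring protein-coding genes, so that the tRNA-Leu AT1G64120 (chromosome 1, 23802553 to 23802636, plus strand) appears under AT1G64130, whose annotated model starts downstream at 23803023. Its share was 5.25%, 2.60% and 0% in R49Q, against 7.84%, 15.5% and 34.2% in GFP-only. The edgeR quasi-likelihood test gave a log2 fold change of -2.81 (SE 1.69, adjusted p = 0.295), which did not pass the threshold. The tRNA-Gln AT4G03405 (chromosome 4, 1501607 to 1501678, plus strand), which lies in the 5′ UTR of AT4G03410, took 2.63%, 0.884% and 2.60% in R49Q, against 8.04%, 3.03% and 8.86% in GFP-only. This difference did not pass either, with a log2 fold change of -1.71 (SE 1.72, edgeR adjusted p = 0.574). The tRNA-Leu AT4G25635 (chromosome 4, 13076574 to 13076657, minus strand) lies in a coding exon of DTX35 and took 1.99%, 0.743% and 0% in R49Q, against 2.55%, 3.34% and 16.5% in GFP-only. For these 3 genes each R49Q share was below each GFP-only share, a pattern found in 3 of the 72 genes tested (4.17%), so that no other gene had it. The remaining one, the tRNA-Arg AT3G12585 in an intron of AT3G12587, took 0.725%, 0.372% and 0% in R49Q, against 0.980%, 1.01% and 0% in GFP-only, and the groups overlapped.

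Within a tRNA, the main bases were common to both genotypes. In AT1G64120 the sites fell between bases 22 and 52 of 84, and bases 36 and 39 stood out. Base 36 had 26 and 52 crosslinks in the first and second R49Q libraries, against 10, 30 and 9 in the GFP-only libraries. Base 39, the capital letter in the window above, had 21 and 87 in those R49Q libraries, against 16, 69 and 10 in GFP-only. The tRNA-Leu AT4G25635 was highest at its base 39 too, tied with another base in 1 library of each genotype, with 7 and 23 crosslinks in R49Q against 8, 8 and 8 in GFP-only. The 2 tRNA-Leu genes are identical at 82 of 84 bases and their windows above are the same, so uniquely mapped reads may be split between them. Taken as a pair they held 7.25%, 3.35% and 0% of the crosslinks in R49Q, against 10.4%, 18.8% and 50.6% in GFP-only. In the tRNA-Gln AT4G03405 the sites of bases 33 to 36 held most crosslinks in every library but the third R49Q one, which had 4 crosslinks in all.

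**Figure D2:**
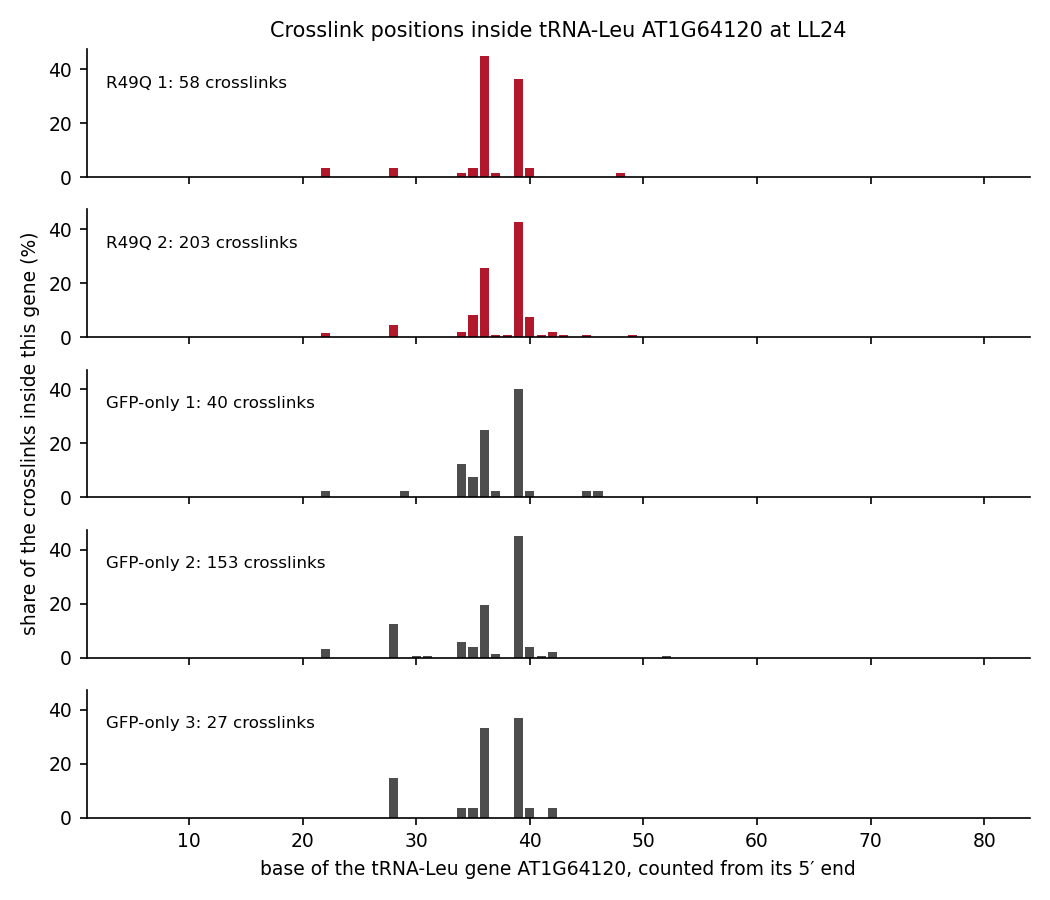
Listed crosslinks inside the tRNA-Leu gene AT1G64120 by base from its 5′ end (horizontal axis), as a percentage of the library's crosslinks in that gene (vertical axis), for the 2 R49Q (red) and 3 GFP-only (grey) libraries at LL24 that list it. Bases 36 and 39 are the highest bars in all 5 libraries.

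Across genes, the 6 lists shared little. Of 684 listed genes, 603 were in 1 library only and 2 in all 6, which were AT4G03410 and TPPI. The R49Q libraries named 555 genes and the GFP-only libraries 180. The 51 genes in common were 9.19% of the R49Q genes and 28.3% of the GFP-only genes. In the edgeR quasi-likelihood test on crosslinks per gene, 0 of 72 genes passed an adjusted p of 0.05 (background 0.0%). The smallest adjusted p of this fit was 0.272. Among the genes tested, 47 had a higher and 25 a lower mean share in R49Q. However, 24 had no listed site in GFP-only and 1 had none in R49Q. Those 24 passed the filter through R49Q alone, so their direction was set by the filter. At an unadjusted p under 0.05 there were 6 genes, 5 higher and 1 lower in R49Q. Without the filter on low counts, 0 of 684 genes passed and 21 had an unadjusted p under 0.05, of which 6 were higher and 15 lower in R49Q. DESeq2 and limma also called 0 genes, with 0 and 3 at an unadjusted p under 0.05 and smallest adjusted p of 0.953 and 0.0996. Of the 72 genes, 3 had every R49Q share above every GFP-only share and 3 had every R49Q share below (4.17% of the genes tested in each direction). The 3 lower genes are the tRNA-bearing ones above. The 3 higher genes were listed in no GFP-only library, so they separate upward by default. With the third replicates left out, 30 genes had both R49Q shares above both GFP-only shares and 7 had them below. The fit on these libraries tested 69 genes. With fewer libraries shares separate more easily, and a gene that no GFP-only library lists separates upward whenever both R49Q libraries list it. The 30 are therefore not read as a result about R49Q.

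The 3 genes with higher shares throughout were LP1, GAPA and LHB1B2, and they were the only genes listed in all 3 R49Q libraries and in no GFP-only library. Such a gene lies above every GFP-only share by default. The third GFP-only library holds 79 crosslinks, and its exact binomial upper limit for these genes was 4.56%. Except for LP1 at 5.19%, every R49Q share of these genes lay below that limit, so this library is uninformative here. In the first and second GFP-only libraries the limits were 0.721% and 0.372%, below every R49Q share. These limits take an unlisted gene as 0 crosslinks and cover counting error only. LP1 (AT2G38540, chromosome 2, 16130290 to 16131240) encodes a lipid transfer protein. It held 13, 70 and 8 crosslinks in R49Q, or 1.18%, 0.897% and 5.19%, against none listed in GFP-only. All but 1 of these lay in the 3′ UTR, and the base at 16131033 was crosslinked 6, 13 and 2 times. GAPA (AT3G26650, chromosome 3, 9794862 to 9797045), a subunit of the chloroplast glyceraldehyde-3-phosphate dehydrogenase of the Calvin-Benson cycle, held 12, 57 and 5 crosslinks, or 1.09%, 0.731% and 3.25% in R49Q, against none listed in GFP-only. Its 3′ UTR base at 9796913 was listed in every R49Q library, with 3, 11 and 4 crosslinks. LHB1B2 (AT2G34420, chromosome 2, 14522524 to 14523568), a chlorophyll a/b-binding protein of the photosystem II antenna, held 16, 77 and 2 crosslinks, or 1.45%, 0.987% and 1.30% in R49Q, against none listed in GFP-only. The first and second R49Q libraries shared 5 positions in its 3′ UTR, the base at 14522627 with 6 and 7 crosslinks among them, whereas the 2 crosslinks of the third lay in the coding exon. LHB1B2 belongs to a family of related genes, CAB2 among them. How alike their sequences are, and whether uniquely mapped reads are split between them, was not checked.

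The edgeR adjusted p of these 3 genes was 0.295 each, and none passed. No fold change is given for them, because an unlisted gene sets no lower level. The gene with the smallest p was CAB2 (AT1G29920), another antenna protein, with 0%, 0.244% and 13.0% in R49Q, against none listed in GFP-only (edgeR adjusted p = 0.272). Its 20 crosslinks in the third R49Q library were in the 5′ UTR, whereas the 19 of the second were in the coding exon and the 3′ UTR. THI1 (AT5G54770), which makes the thiazole part of thiamine, was listed with 0.906%, 1.46% and 0% in R49Q and with none in GFP-only. In the other direction the smallest p belonged to AT4G02200, with 5 crosslinks in each of 2 GFP-only libraries and no listed site in R49Q (edgeR adjusted p = 0.295). It was the only gene in 2 or more GFP-only libraries and no R49Q library. The opposite pattern, 2 or more R49Q libraries and no GFP-only library, held for 29 genes, but the R49Q lists held far more sites in sum. Of those 29 genes, 25 were also listed in AtGRP7-GFP at LL24, as were 241 of all 555 R49Q genes (43.4%) and 86 of all 180 GFP-only genes (47.8%). These sets are unlike, since the 29 recur in 2 or more libraries. Of the 555 R49Q genes, 475 were in 1 R49Q library and in no GFP-only library. Whether these shares differ was not tested.

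**Figure D3:**
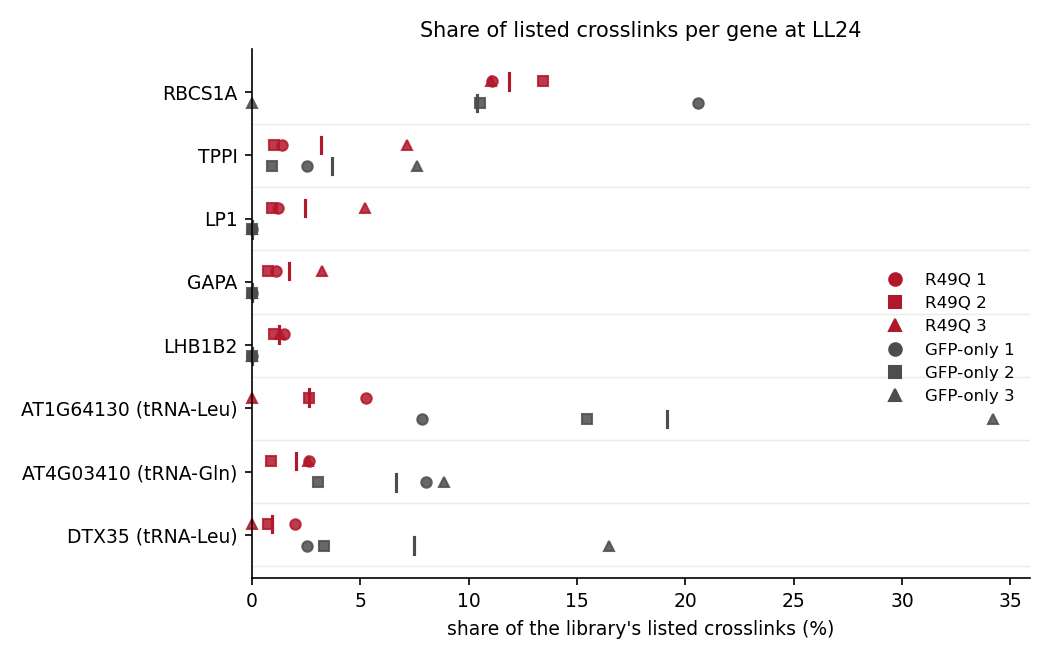
Share of each library's listed crosslinks (horizontal axis, %) in 8 genes at LL24, with R49Q in red above GFP-only in grey, 1 symbol per library and a vertical tick at the mean. RBCS1A and TPPI overlap between the genotypes, LP1, GAPA and LHB1B2 are at 0 in GFP-only, and the 3 genes with tRNA sites are lower in R49Q.

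RBCS1A had the highest mean share of all genes in R49Q and, after the tRNA-Leu named as AT1G64130, the next highest in GFP-only. RBCS1A (AT1G67090, chromosome 1, 25048158 to 25049667, minus strand) encodes a small subunit of the enzyme that fixes CO2, and it held 11.1%, 13.4% and 11.04% of the crosslinks in R49Q, against 20.6%, 10.5% and 0% in GFP-only. The means of 11.8% ± 1.37 in R49Q and 10.4% ± 10.3 in GFP-only (SD, n = 3 each) overlapped (log2 fold change 0.17, SE 1.57, edgeR adjusted p = 0.933), and without the third GFP-only library the log2 fold change was -0.39. RBCS3B, another member of the family, had 5.07%, 5.90% and 0% in R49Q, against 2.55%, 3.94% and 0% in GFP-only (edgeR adjusted p = 0.808). Because reads had to map uniquely, copies that are alike may lose or exchange reads, and the list was therefore also summed. How alike the rubisco genes are was not checked. With rubisco activase (RCA) added, the 5 rubisco genes took 16.1%, 26.1% and 22.1% in R49Q, against 25.3%, 16.3% and 0% in GFP-only, again overlapping. All 5 were tested, 0 passed, and 5 had a higher mean share in R49Q, as did 47 of the 72 genes tested. Their median difference was 1.49 percentage points, against 0.194 over all 72 genes tested. The summed share differed by 7.57 points, but by 0.642 points without the third GFP-only library, which lists no rubisco site among its 79 crosslinks, and by 0.317 points without the third library of both genotypes.

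RBCS1A was similar in share but not in where it was crosslinked. This gene was looked at because it had the most positions, and its split by exon was chosen after its values were seen, so it is described without a test. In the 5′ UTR the R49Q libraries had 11, 32 and 6 crosslinks, or 9.02%, 3.06% and 35.3% of those in the gene, whereas neither of the GFP-only libraries with RBCS1A crosslinks listed one there. The first exon as a whole held 69 of 122, 359 of 1047 and 6 of 17 crosslinks in R49Q, against 6 of 105 and 0 of 104 in the first and second GFP-only libraries. As percentages these were 56.6%, 34.3% and 35.3% in R49Q, against 5.71% and 0% in GFP-only. The first-exon sites of R49Q ran from 26 bases before to 111 bases after the first base of the start codon. The base 47 after it, shown above, had 10 and 19 crosslinks in the first and second R49Q libraries and none listed in GFP-only. In the last exon the genotypes met again. The base at 25048499, shown above, had 50 crosslinks in the second R49Q library and none listed in the others, against 24 and 15 in the first and second GFP-only libraries. The 3′ UTR took 41.8%, 52.1% and 64.7% in R49Q, against 54.3% and 73.1% in GFP-only. In AtGRP7-GFP at LL24, the first exon held 39.1%, 29.4% and 41.0%.

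RBCS3B did not have this split. Its first exon held 32.1% and 30.0% of the crosslinks in the first and second R49Q libraries, against 0% and 38.5% in the first and second GFP-only libraries, the 0% resting on 13 crosslinks. At LL36 the second R49Q library had 18.5% of its 211 RBCS1A crosslinks in the first exon, whereas the 2 GFP-only libraries with RBCS1A crosslinks, 40 and 25 of them, had all in the 3′ UTR.

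**Figure D4:**
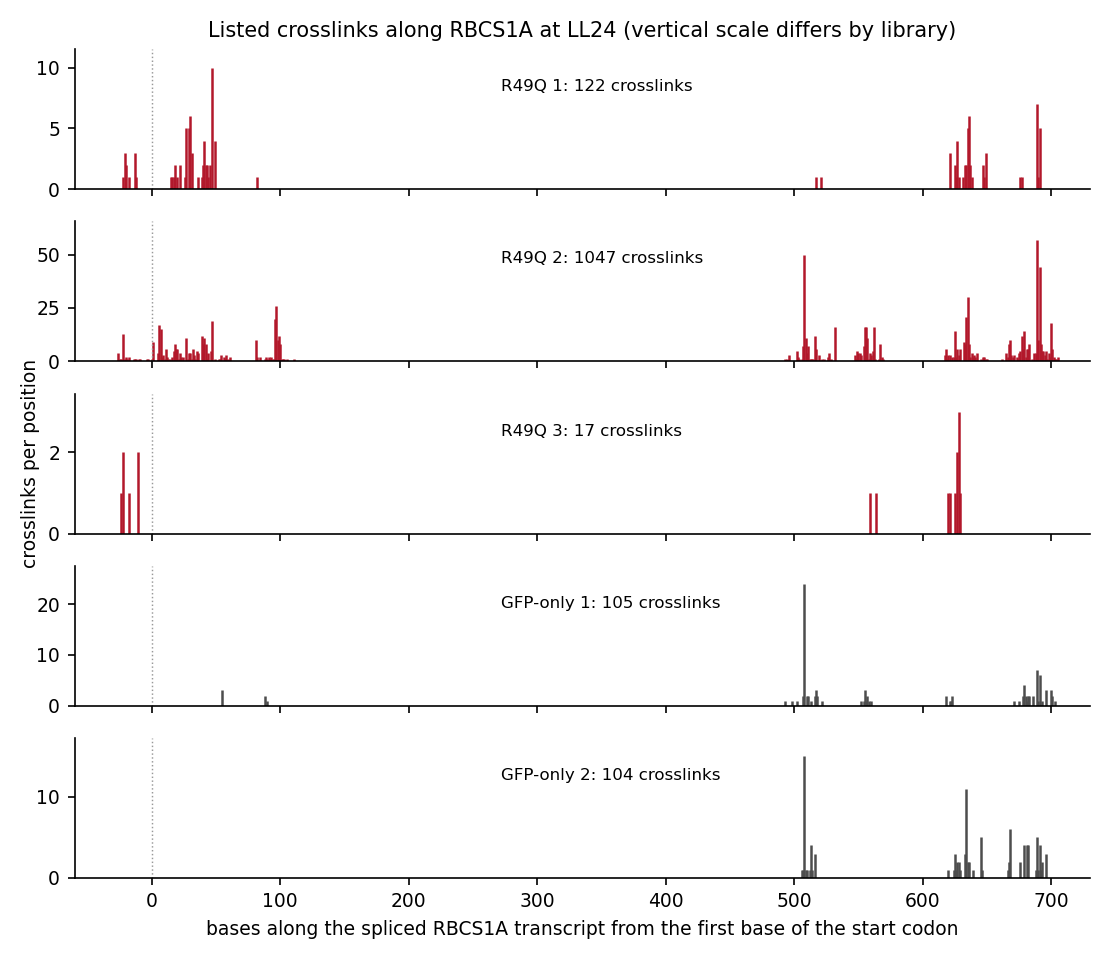
Crosslinks per listed position (vertical axis, scaled per library) along the spliced RBCS1A transcript in bases from the first base of the start codon (horizontal axis, dotted line at 0) for 3 R49Q (red) and 2 GFP-only (grey) libraries at LL24; the third GFP-only library lists none. Sites near the start codon appear in the R49Q libraries, and those toward the 3′ end in all 5.

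TPPI (AT5G10100), which encodes a trehalose-6-phosphate phosphatase, was the one protein-coding transcript outside the tRNA overlaps to be listed in every library. Its share was 1.36%, 1.00% and 7.14% in R49Q, against 2.55%, 0.910% and 7.59% in GFP-only (log2 fold change -0.20, SE 1.75, edgeR adjusted p = 0.933; 0.42 with TMM scaling and 0.82 without the third GFP-only library). All its sites in all 6 libraries fell within 3160435 to 3160443 of chromosome 5, in the U-rich 3′ UTR window above, where 10 of 21 bases are U. The base at 3160439 was hit 5, 11 and 2 times in R49Q, against 4, 3 and 4 times in GFP-only. This cluster was common to mutant and background.

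Other photosynthetic transcripts are grouped by function. The antenna genes bind chlorophyll and pass light energy to the photosystems. Of the 18 LHCB and LHCA genes, 15 were listed in R49Q and 6 in GFP-only. Of all 684 listed genes, 555 were listed in R49Q and 180 in GFP-only, so a higher count in R49Q is not particular to antenna genes. Together the antenna genes took 3.99%, 9.28% and 14.3% in R49Q, against 1.76%, 2.93% and 0% in GFP-only. Each R49Q value was above each GFP-only value. Without CAB2 the R49Q values were 3.99%, 9.04% and 1.30%, against the same 1.76%, 2.93% and 0% in GFP-only, and the groups overlapped. At LL36, with CAB2 included, the sum was 0% and 9.01% in R49Q, against 0%, 9.86%, 4.56%, 3.61% and 0% in GFP-only. Those groups overlapped too. Of 7 LHCB genes tested, 0 passed, 5 had a higher and 2 a lower mean share in R49Q, with a median difference of 0.392 points. For 3 of the 7 no GFP-only library listed a site, so their direction was set by the filter. Both LHCA genes tested had a higher mean share and neither passed (median 0.374 points). In photosystem II, PSBR held 31, 204 and 0 crosslinks in R49Q, against 4, 4 and 0 in GFP-only, and PSBW 12, 42 and 0, against none listed. None of the 4 photosystem II genes tested passed (3 with a higher mean share, median 0.775 points, although the summed share of that list differed by -0.202 points, with 7 crosslinks of PSBTN in the third GFP-only library), nor did any of the 3 photosystem I genes (2 higher, median 0.00788 points).

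Ferredoxin FED A, an electron carrier, had 0.0906%, 1.19% and 5.84% in R49Q, against 2.75%, 1.11% and 0% in GFP-only, and overlapped. It and the plastocyanin gene DRT112 were the 2 electron-carrier genes tested, neither of which passed (median 0.768 points). The carbonic anhydrase CA1 held 11, 140 and 0 crosslinks in R49Q, against 0, 1 and 0 in GFP-only, most of them in introns, again as counts from libraries of unlike size. The 2 carbonic anhydrases (median 0.590 points) and 2 Calvin-Benson genes tested (median 0.992 points) had higher mean shares and none passed. Both Calvin-Benson genes and 1 of the carbonic anhydrases had no listed site in GFP-only, so their direction was set by the filter. The catalase CAT2 (0.382 points), the aquaporin PIP1B (0.284 points) and LP1 alone of the lipid transfer list (2.42 points) also had higher mean shares, and an elongation factor 1A gene a lower one (-0.155 points), none past the threshold. CAT2, PIP1B and LP1 had no listed site in GFP-only, so their direction too was set by the filter. No gene of the cold and dehydrin, metallothionein, glycine-rich or clock lists was tested. All 8 photosynthesis lists together, 63 genes, gave 31.8%, 54.5% and 45.5% in R49Q, against 36.7%, 22.8% and 8.86% in GFP-only.

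Positions were then compared base by base. Of 3282 distinct positions, 3007 were listed in R49Q and 472 in GFP-only, and the 197 in both were 6.55% of the R49Q positions and 41.7% of the GFP-only positions. A position was called reproducible when at least 2 of the 3 libraries of a genotype listed it. There were 183 reproducible positions in R49Q and 44 in GFP-only, with 26 in common, which is 14.2% of the R49Q and 59.1% of the GFP-only positions. All 44 reproducible GFP-only positions were listed in at least 1 R49Q library, whereas 116 of the 183 reproducible R49Q positions were in no GFP-only library. The smaller lists of GFP-only bear on this count. Of these 116, 115 were also listed in AtGRP7-GFP at LL24, whose lists are far longer. So were 182 of all 183 reproducible R49Q positions and all 44 reproducible GFP-only positions, and the 116 did not stand out in this. Inside tRNA genes lay 23 of the 183 positions in R49Q and 20 of the 44 in GFP-only.

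The 183 R49Q positions lay in 30 genes, led by RBCS1A with 49, RBCS3B with 23, PSBR with 8, the tRNA-Leu named as AT1G64130 with 8 and LP1 with 7. The 44 GFP-only positions lay in 10 genes, led by RBCS1A with 13, AT1G64130 with 9, and DTX35, AT4G03410 and TPPI with 4 each. LP1, PSBW, LHB1B2 and THI1 had 7, 5, 5 and 4 reproducible positions in R49Q and no site in any GFP-only library. Genes of the photosynthesis lists were 17 of the 30 in R49Q and 4 of the 10 in GFP-only. Both sets include the 4 genes that name the tRNA sites, which weigh more among 10 genes than among 30. With those set aside, most genes of either set were in the photosynthesis lists. Whether the sets differ in this was not tested. U was the crosslinked base at 109 of 183 reproducible positions in R49Q (59.6%) and at 26 of 44 in GFP-only (59.1%).

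By transcript region, coding exons held 44.2% ± 10.8 of the sites in R49Q and 57.2% ± 6.79 in GFP-only (SD, n = 3 each), with overlap between the libraries. The 3′ UTR held 31.9%, 46.1% and 45.3% in R49Q, against 38.8%, 33.9% and 25.0% in GFP-only. Neither difference passed (coding exons -13.0 points, 3′ UTR 8.53 points, both with an exact permutation p = 0.3 and 0.6 adjusted over 4 regions). The 5′ UTR averaged 11.1% ± 6.76 in R49Q and 7.73% ± 2.20 in GFP-only, and introns 3.61% ± 3.20 in R49Q and 2.54% ± 2.53 in GFP-only (SD, n = 3 each; exact permutation p = 0.7 and 0.8). Some tRNA sites count here as mRNA regions, such as those in the coding exon of DTX35. An alternative chosen after seeing the data left tRNA sites out. The differences were then -10.9 points for coding exons, 2.32 for the 3′ UTR, 7.12 for the 5′ UTR and 1.48 for introns (exact permutation p = 0.3, 0.6, 0.2 and 0.5). The crosslinked base was U at 57.0%, 56.1% and 51.3% of sites in R49Q, against 54.8%, 52.1% and 51.9% in GFP-only (exact permutation p = 0.4, 0.4 adjusted over 3 base measures). U and C together made up 59.3% ± 2.09 of the bases within 10 nt in R49Q and 56.0% ± 1.92 in GFP-only (SD, n = 3 each; exact permutation p = 0.2, adjusted 0.4). Neither base measure passed the test.

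The AtGRP7-GFP libraries at LL24 listed 60.1%, 75.9% and 73.7% of the R49Q positions and 74.0%, 54.1% and 77.8% of the GFP-only positions (difference 1.26 points, exact permutation p = 0.9). Without tRNA sites, an alternative chosen after seeing the data, the difference was 8.92 points (exact permutation p = 0.3). The similarity of libraries within and between genotypes did not separate them either. The percentage of the gene profile shared between 2 libraries averaged 27.1% within R49Q, 25.6% within GFP-only and 20.9% between them (within minus between 5.50 points, exact permutation p = 0.2). Without tRNA sites this difference was 0.42 points (exact permutation p = 0.8). For positions the shared percentage averaged 7.80% within R49Q, 17.1% within GFP-only and 8.55% between them (3.90 points, exact permutation p = 0.2).

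At LL36 the tRNA share was 14.7% and 13.1% in R49Q, against 45.9%, 18.5%, 43.3%, 46.6% and 36.4% in GFP-only. Both R49Q libraries were again below every GFP-only library (difference -24.2 points, exact permutation p = 0.0952, the smallest that 2 against 5 can give), though the first R49Q library held 34 crosslinks. LP1 and GAPA had no listed site in any of the 7 libraries at LL36, and LHB1B2 was listed in 1 of 2 R49Q and 1 of 5 GFP-only libraries. A test of the difference between LL24 and LL36 was not run.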

How the data were processed

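Each library was deposited as a list of XL sites with the count of crosslinks at each. To make these counts, the authors trimmed reads (cutadapt 1.9.1), removed duplicates by barcode, mapped to TAIR10 with STAR 2.5.2a, kept unique mappers, and listed positions with a false discovery rate under 0.05. Read depths are not used here. Counts were summed per gene, intron entries included, and divided by the library sum. Regions and tRNA genes came from the TAIR10.1 RefSeq annotation, where 683 of 684 gene IDs matched and 97.6% of entries could be placed. Genes with at least 10 crosslinks in all, from at least 2 libraries, were tested with edgeR 4.0.16 (quasi-likelihood, library sums as sizes, Benjamini-Hochberg 0.05), checked on simulated data. The simulation set 16-fold changes and a spread between replicates that was not estimated from these libraries. It does not show what size of change could be called here. Single values per library were tested by two-sided exact permutation. Replicates are separate pools of plants; p-values measure the spread between them. Intervals cover counting error only. Genes were named if AtGRP7 or AtGRP8, among the 10 highest mean shares of a genotype, the 5 smallest p per direction, the 10 richest in reproducible positions with no site in the other genotype, or list members in 2 libraries, and a selection of these is described. The members, lists and tests were chosen with earlier results of these data known. Alternatives covered scaling (TMM, DESeq2 1.42.0, limma 3.58.1), filters, weights, merging and left-out libraries. The planned test of positions within genes gave no value, since 0 genes had 10 crosslinks in each of the 6 libraries.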

Additional observations from a re-analysis of the deposited data

How the results depend on the processing

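The tRNA share was lower in R49Q under each alternative run, by -35.2 to -15.2 points when 1 library was left out, and each per-gene fit called 0 genes. Of 379 alternative values, 347 kept their direction and side of the threshold or moved little. None of the differences that changed sign had passed a test, and the causes were not tested. U at the site differed by -1.97 points weighted by crosslinks and -1.30 without tRNA sites. The share also listed in AtGRP7-GFP differed by -1.77 when 2 of 3 libraries had to list a site, by -2.98 when weighted, by 8.92 without tRNA sites, and by -6.00 to 6.17 with 1 library left out. Leaving out 1 library gave -0.357 to 6.18 for the 5′ UTR and -0.194 to 2.88 for introns. Similarity of gene profiles was -0.0766 by the Jaccard index. For RBCS1A the log2 fold change was -0.0538 on positions, -0.0925 without tRNA sites, -0.34 without the third replicates of both genotypes, and -0.39 to 1.09 with 1 library left out. RBCS3B had -0.14 on positions. TPPI had 0.42 with TMM, 0.0857 with DESeq2, and -1.54 to 0.82 with 1 library left out. The median log2 fold change over the 72 genes was 0.96, against 1.11 with TMM and 1.201 with DESeq2. Reproducible positions in R49Q, GFP-only and both numbered 3007, 472 and 197 when 1 library sufficed, 17, 11 and 3 when all 3 were required, and 502, 117 and 99 when sites within 3 bases were joined. Without the third replicates and without CAB2 or tRNA sites are alternatives chosen after seeing the data, and the first gave 30 genes separated upward and 7 downward. In that count a gene listed in both R49Q libraries and in no GFP-only library separates upward by default. Replicate numbers did not pair the libraries (correlations of deviations -0.12, 0.25 and -0.14). The fit with the replicate block called 0 genes, with 2 at an unadjusted p under 0.05. The third replicates hold 154 crosslinks in R49Q and 79 in GFP-only, and most genes have no listed site there.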
